A study of Mus musculus with 50 samples.

Results

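Loss of the kinase SGK3 and treatment with an SGK inhibitor were compared in RAW264.7 cells, a mouse macrophage line, after stimulation with DMXAA. The comparison used 10 of the 50 libraries of the series, chosen by their labels: 5 of control cells given Sanofi-14h and then DMXAA, and 5 of SGK3 knockout cells given DMXAA. The control cells were labelled WT and carried an empty vector sgRNA, while the knockout line was made by CRISPR. Sanofi-14h is an inhibitor of SGK kinases, used at 500 nM for 2 h before the stimulus, and DMXAA, an agonist of mouse STING, was given at 10 µg/mL for 2 h in both groups. All 10 libraries had numbered names, like the rest of the set called batch b1 here. Reference groups of that batch were control cells with DMXAA (5 libraries), control cells at rest (3), SGK3 knockout cells at rest (3) and SGK1/SGK3 double knockout cells with DMXAA (5). The labels name 1 line per genotype and do not say whether it was a clone, so the SGK3 genotype and the line cannot be told apart. No resting library with the inhibitor was among the samples, and the labels do not say which libraries received the DMSO vehicle.

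SGK1, SGK2 and SGK3 are serine/threonine kinases of the AGC family that act downstream of PI3-kinase. SGK kinases phosphorylate the protein encoded by Ndrg1 and share some substrates with AKT. STING is an adaptor of the endoplasmic reticulum that, once bound by a cyclic dinucleotide or by DMXAA in the mouse, recruits the kinase TBK1, which phosphorylates the transcription factor IRF3. IRF3 and NF-kB switch on Ifnb1, the gene of interferon beta, and secreted interferon beta then acts through its receptor on the interferon-stimulated genes. Some of these genes are direct targets of IRF3 as well, and many are also held at a basal level by interferon that resting cells make.

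Library depth ran from 57859509 to 94616453 counts over the 10 libraries, with 18386 to 19410 genes detected in each. Levels are given as CPM, counts scaled for depth on library sizes adjusted by the TMM method, and are compared for 1 gene between groups, never between genes. Differences are log2 values ± SE, tested with edgeR's quasi-likelihood F test at a threshold of 0.05 on p-values adjusted by Benjamini-Hochberg over every gene tested. The labels do not say that replicates were separate cultures, so a p-value here speaks of the spread among these libraries alone, which may be technical. In libraries of bulk RNA, fewer cells of a type and less RNA per cell cannot be told apart. The knockout library 5 and the inhibitor libraries 1 and 4 stood slightly apart from the others of their groups in a principal component analysis. Leaving out knockout library 5 or inhibitor library 1 moved no count over all tested or all DMXAA-induced genes by more than 1.5 times. Without inhibitor library 4, the DMXAA-induced genes higher with the inhibitor fell from 56 to 34. Of 8 macrophage markers, all were tested, 5 were higher in the knockout and 3 did not pass. Of all genes tested, 12.3% were higher in the knockout and 9.65% with the inhibitor. Of 36 markers of other cell types, 6 passed the filter on low counts and none passed, although 2 did in limma on TPM. Their summed level was 1.2 to 1.93 CPM with the inhibitor and 0.724 to 1.2 CPM in the knockout, and its part in the results was not tested.

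The targeted gene itself was not lower in the knockout. Sgk3 stood at 99.4, 109, 111, 112 and 102 CPM in the knockout libraries with DMXAA, at 94.5, 99.8, 93.3, 94.8 and 92.0 CPM with the inhibitor, and at a mean of 102 CPM in control cells with DMXAA. The knockout and the control with DMXAA differed by 0.06 ± 0.04 (adjusted p = 0.27). A CRISPR edit can end a protein without lowering its transcript, so gene-level counts do not check this label, and the genotype is taken from it. Sgk1 transcript was counted in all 5 inhibitor and all 5 knockout libraries, while Sgk2 had 0 counts in every library of the batch.

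With DMXAA on board, 3720 of 16947 genes tested (22%) differed between inhibitor and knockout. Of these, 1635 (9.65%) were higher with the inhibitor and 2085 (12.3%) were higher in the knockout. Most differences were small: 282 genes (1.66%) were at least 2-fold higher with the inhibitor and 284 (1.68%) at least 2-fold higher in the knockout. For 8747 genes (51.6%) the 95% interval of the difference lay within 0.5 of 0 on the log2 scale. The 5 and 5 libraries did not overlap for 2534 genes (15%), of which 1078 (6.36%) were higher with the inhibitor and 1456 (8.59%) higher in the knockout. The count depended on the libraries fitted: a fit that added the 20 libraries of batch b2 called 1871 genes, 706 higher with the inhibitor and 1165 higher in the knockout. The direction of the split turned with upper-quartile scaling, to 2061 higher with the inhibitor and 1890 higher in the knockout, and with limma on the authors' TPM, where test and input both differ, to 1728 and 1461.

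**Figure D1:**
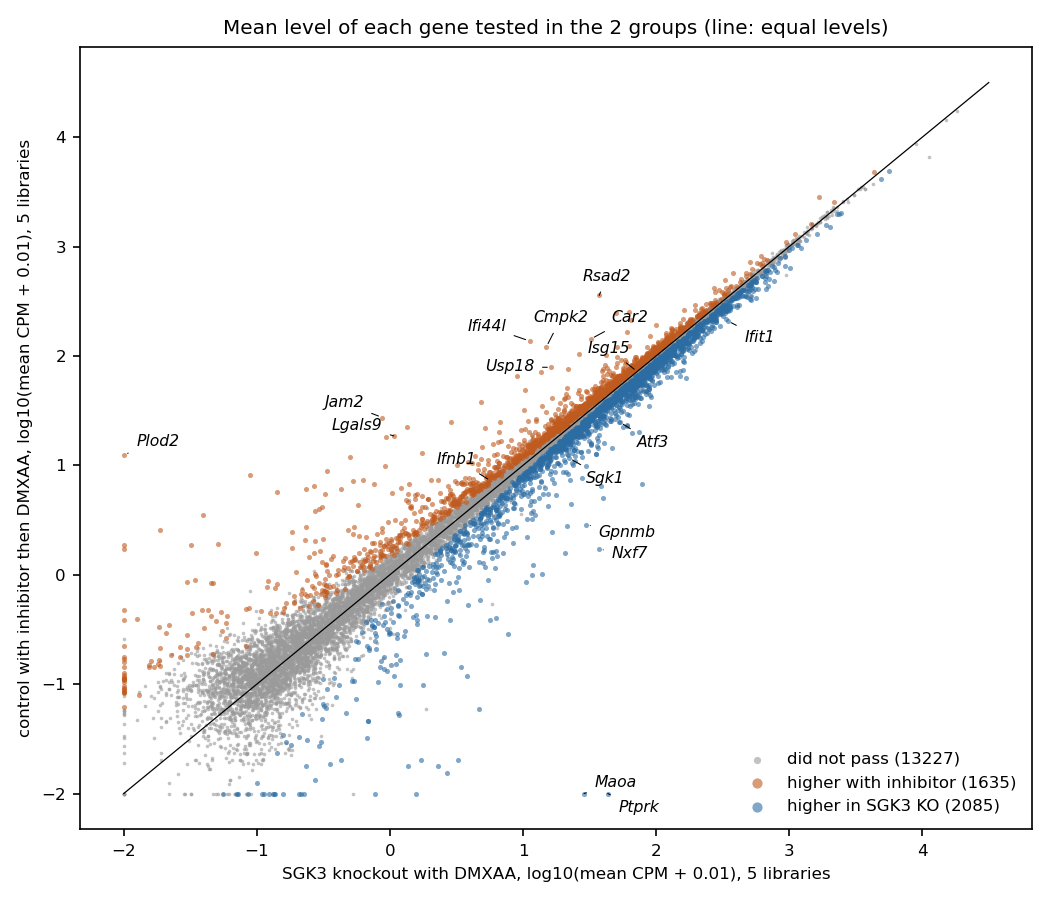
Mean CPM of each of the 16947 genes tested in the 5 inhibitor libraries (y axis) against the 5 SGK3 knockout libraries (x axis), both with DMXAA, as log10(CPM + 0.01), coloured by the call. Most genes lie on or near the line of equal levels, Rsad2, Cmpk2, Ifi44l and Usp18 lie above it, Sgk1, Atf3 and Ifit1 lie below it, and Maoa and Ptprk lie at 0 with the inhibitor.

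Both groups had far less interferon beta transcript than control cells, and the difference between them did not pass. Ifnb1 (chr4:88440262-88441011, GRCm39) was at 0 in every resting library of the batch and at 28.4, 30.3, 37.9, 42.6 and 52.0 CPM in control cells with DMXAA. With the inhibitor it reached 7.4, 7.11, 6.63, 7.67 and 7.03 CPM, and in the knockout 4.27, 6.97, 4.88, 5.50 and 7.20 CPM. The libraries of the 2 groups overlapped and all lay below the lowest control library. The difference of 0.31 ± 0.19 (adjusted p = 0.28) did not pass, with a 95% interval from -0.08 to 0.71. Against the same control libraries, the difference was -2.42 ± 0.19 with the inhibitor and -2.73 ± 0.19 in the knockout.

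Several other strongly DMXAA-induced genes also had overlapping libraries. Isg15, Mx2, Oasl1, Ccl4 and Egr1 were named because the 95% interval of this difference lay within 0.5 of 0, so their likeness follows from the choice. Of 109 DMXAA-induced genes of at least 5 CPM in control cells with DMXAA, 24 had such an interval. Among all 9553 genes at that level, 8300 had one. Isg15, which encodes a ubiquitin-like modifier induced by interferon, stood at 62.8, 74.1, 73.5, 78.8 and 68.5 CPM with the inhibitor and at 72.5, 76.5, 72.7, 72.6 and 68.4 CPM in the knockout. The control with DMXAA had a mean of 195 CPM, above all 10 libraries. The difference between inhibitor and knockout was -0.02 ± 0.17, with a 95% interval from -0.38 to 0.34. Mx2, a dynamin-like antiviral GTPase, had means of 16.9 ± 3.27 (SD, n = 5) and 17.0 ± 2.56 CPM against 113 in the control. Oasl1, an inhibitor of Irf7 translation in mice, had means of 581 ± 60.5 and 649 ± 12.6 CPM against 1125 in the control, and its difference of -0.16 ± 0.08 did not pass, though it did with only the 2 groups in the fit (adjusted p = 0.041). The chemokine gene Ccl4, at 743 and 834 CPM, and the zinc finger factor gene Egr1, at 235 and 259 CPM, did not pass either.

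The gene of the interferon regulatory factor Irf1 also did not pass, at 23.5 ± 2.23 CPM with the inhibitor and 22.5 ± 0.98 CPM in the knockout. Cxcl10, at 237 and 311 CPM, and Tnf, at 334 and 393 CPM, had libraries that did not overlap and adjusted p of 0.053 and 0.074. Under the alternatives tried, the adjusted p of Cxcl10 fell to as low as 2.6e-05, with only the 2 groups in the fit, and that of Tnf to 0.0073 in the same fit. They were 0.26 and 0.43 in the fit with b2.

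Another set of antiviral genes was far higher with the inhibitor. Rsad2 (chr12:26492745-26506451), which encodes the antiviral enzyme viperin, stood at 256, 378, 421, 379 and 353 CPM with the inhibitor and at 37.3, 39.7, 42.9, 39.1 and 27.8 CPM in the knockout. Its lowest inhibitor library lay above its highest knockout library, with a difference of 3.26 ± 0.19 (adjusted p = 2.5e-11). Both groups were below the control mean of 1700 CPM, by -2.25 ± 0.18 with the inhibitor and -5.51 ± 0.21 in the knockout. The neighbouring Cmpk2 (chr12:26519203-26529836), a mitochondrial nucleotide kinase gene, had the same order, at 120 ± 17.3 CPM with the inhibitor, 14.9 ± 0.859 in the knockout and 524 in the control.

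Usp18, which encodes the protease that removes Isg15 from proteins and dampens interferon receptor signalling, was at 78.8 ± 12 CPM with the inhibitor and 16.4 ± 2.64 CPM in the knockout (2.27 ± 0.15). Ifi44l was at 137 ± 28.0 and 11.2 ± 1.40 CPM (3.61 ± 0.19). Irf7, the factor that amplifies type I interferon transcription, was at 40.1, 56.0, 65.0, 84.8 and 79.4 CPM with the inhibitor and between 7.97 and 10.3 CPM in the knockout. The inhibitor libraries varied widely for this gene, yet all lay above the knockout. Apol9a (4.09 ± 0.27) and the RNA helicase gene Ddx60 (3.57 ± 0.21) had the same direction.

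**Figure D2:**
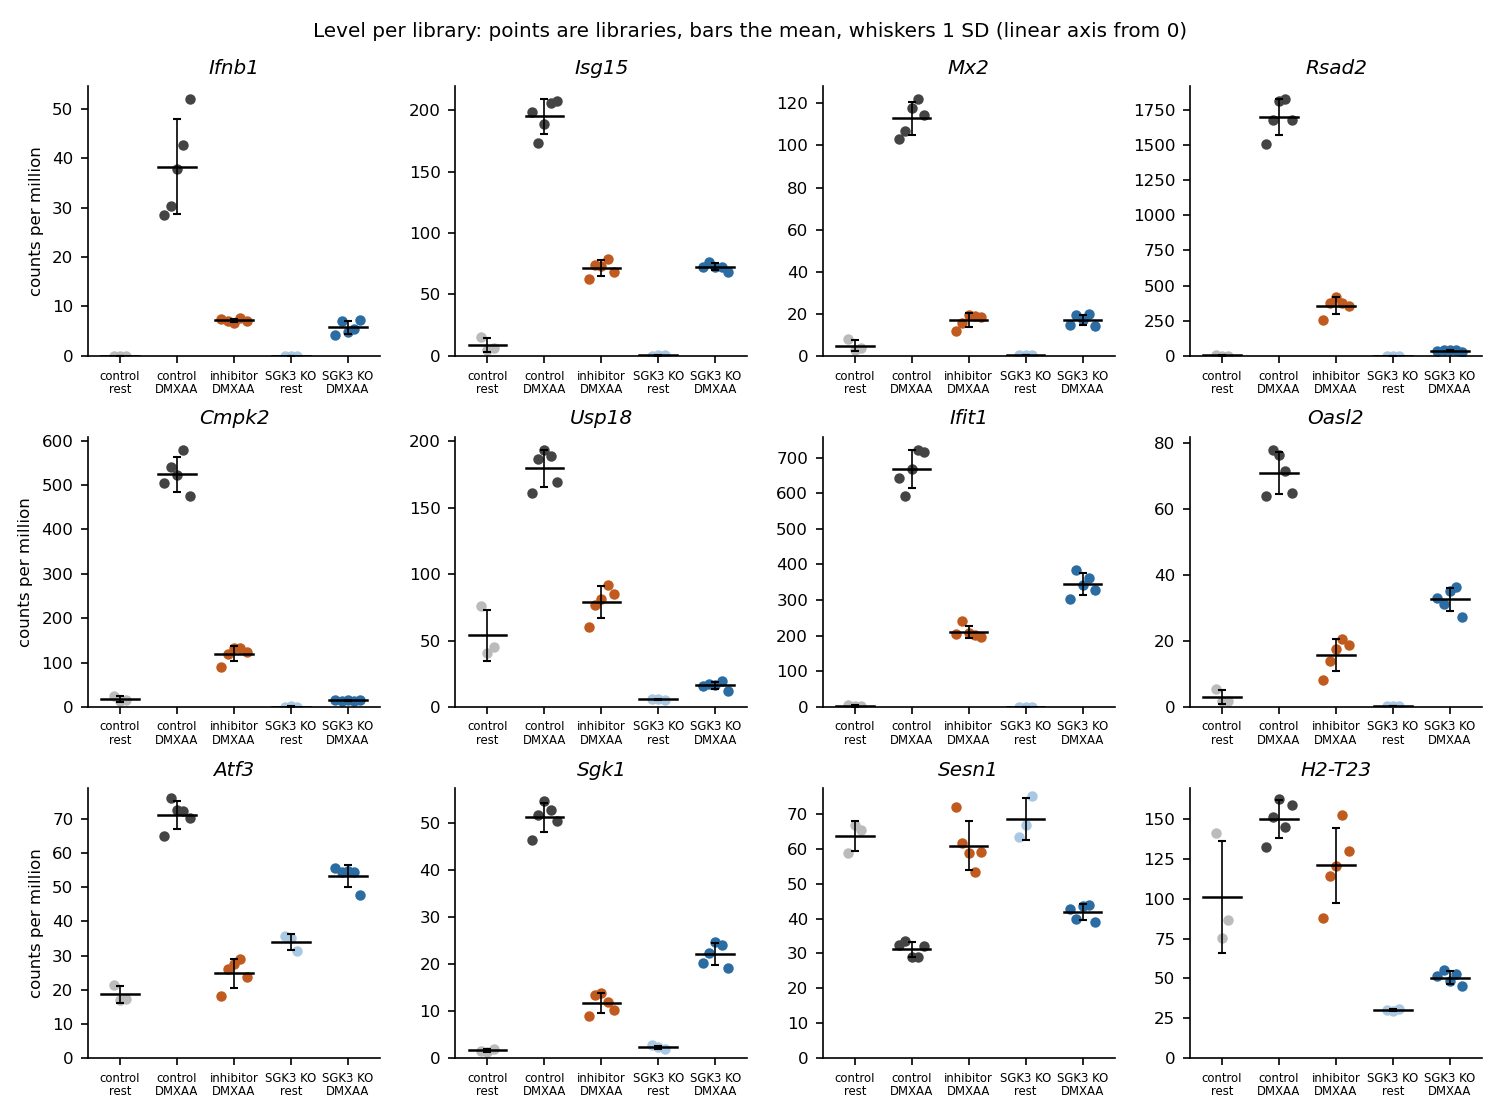
CPM per library on linear axes from 0 for 12 genes in 5 groups of batch b1, with points for libraries, bars for means and whiskers for 1 SD. Inhibitor and knockout overlap for Ifnb1, Isg15 and Mx2, the inhibitor is higher for Rsad2, Cmpk2, Usp18, Sesn1 and H2-T23, and the knockout is higher for Ifit1, Oasl2, Atf3 and Sgk1.

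Ifit genes, Oasl2 and Ccl5 were higher in the knockout, by smaller differences than that of Rsad2. Ifit1, whose protein binds viral RNA lacking cap methylation, stood at 204, 240, 206, 201 and 197 CPM with the inhibitor and at 303, 385, 344, 363 and 327 CPM in the knockout, with no overlap (-0.72 ± 0.15, adjusted p = 0.0013). Oasl2, a 2'-5'-oligoadenylate synthetase-like gene, stood at 8.24, 13.8, 17.4, 20.7 and 18.6 CPM with the inhibitor and between 27.2 and 36.3 CPM in the knockout (-1.05 ± 0.22). Ifit2, Ifit3 and Ifit3b lay on the same side, at -0.57, -0.69 and -0.85. Ifit family members are similar in sequence, so reads may be shared among them. The chemokine gene Ccl5 was at 12.6 ± 1.48 and 21.3 ± 2.2 CPM (-0.75 ± 0.12). In the fit with b2, the calls of Ifit1 (adjusted p = 0.042) and Oasl2 (0.0039) held, while the adjusted p rose to 0.25 for Ifit2, 0.13 for Ifit3, 0.44 for Ifit3b and 0.087 for Ccl5.

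Outside the interferon genes, C5ar1, the receptor of complement C5a, was at 22.5 ± 3.66 CPM with the inhibitor and 56.2 ± 2.67 CPM in the knockout, where it was close to the control range of 53.4 to 67.0 CPM. Acod1, the enzyme that makes itaconate, was at 29.4 ± 2.40 and 60.1 ± 7.74 CPM against 52.3 to 54.9 CPM in the control libraries. Pdcd1, the gene of the inhibitory receptor PD-1, went past the control in the knockout. It stood at 6.50, 7.30, 7.09, 6.64 and 6.39 CPM with the inhibitor, at 73.1, 77.2, 74.8, 84.4 and 79.8 CPM in the knockout, and at a mean of 17.6 CPM in control cells with DMXAA. It was already higher in the knockout at rest, at 5.74 against 1.15 CPM (2.31 ± 0.15, adjusted p = 4.3e-13). C5ar1, Acod1 and Pdcd1, like Ifit1, Ccl5, Tnf, Cxcl10, Irf1 and Irf7, were named after their values were seen.

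Among DMXAA-induced genes at a well-measured level, more were higher in the knockout than with the inhibitor. In control cells DMXAA raised 600 genes at least 4-fold (3.54% of those tested), and the control libraries behind that list are on neither side of the comparison of inhibitor and knockout. Of the 600, 56 (9.33%) were higher with the inhibitor, 72 (12%) were higher in the knockout and 472 did not pass, shares near the 9.65% and 12.3% of all genes tested. Without inhibitor library 4 the 56 became 34. The counts were 76 and 76 in DESeq2, and 88 and 72 in limma on TPM. The median difference of the 600 was above 0, at 0.42, and 0.40 with genes at 0 in a whole group set at their bound. Many of the 600 had low counts, so the 109 that reached 5 CPM in control cells with DMXAA were also described alone, a minimum chosen after the data were seen. Of these 109, 22 (20.2%) were higher with the inhibitor, 48 (44.0%) were higher in the knockout and 39 did not pass, with a median difference of -0.23. Among all 9553 genes at that level, 13.5% and 18% were higher with the inhibitor and in the knockout. Without any 1 of the 10 libraries, the counts stayed between 15 and 22 and between 43 and 49. In the fit with b2 they were 11 and 30.

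The genes higher with the inhibitor and those higher in the knockout differed in what the knockout line did at rest. At rest, 1768 genes (10.4%) differed between knockout and control cells, 989 (5.84%) higher and 779 (4.6%) lower in the knockout, in libraries on neither side of the comparison with DMXAA, although the same fit held all 26. Of the 109 induced genes, 45 were lower in the knockout at rest, and of these 16 were higher with the inhibitor, 15 were higher in the knockout and 14 did not pass (median 0.06). Another 60 were not called at rest, and of these 6 were higher with the inhibitor, 30 were higher in the knockout and 24 did not pass (median -0.33). Rsad2 had 3.49 CPM in resting control cells and 0.0935 CPM in the resting knockout, and Cmpk2 had 18 and 0.748 CPM. Isg15 and Oasl2 were also lower at rest, at 8.91 against 0.384 CPM and 2.98 against 0.292 CPM, although with DMXAA they were not lower in the knockout than with the inhibitor. Acod1 (3.16 against 3.30 CPM) did not pass at rest. The remaining 4 of the 109, Bbc3, Maff, Skil and Pdcd1, were higher in the knockout at rest, and all but Maff were also higher in it than with the inhibitor.

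**Figure D3:**
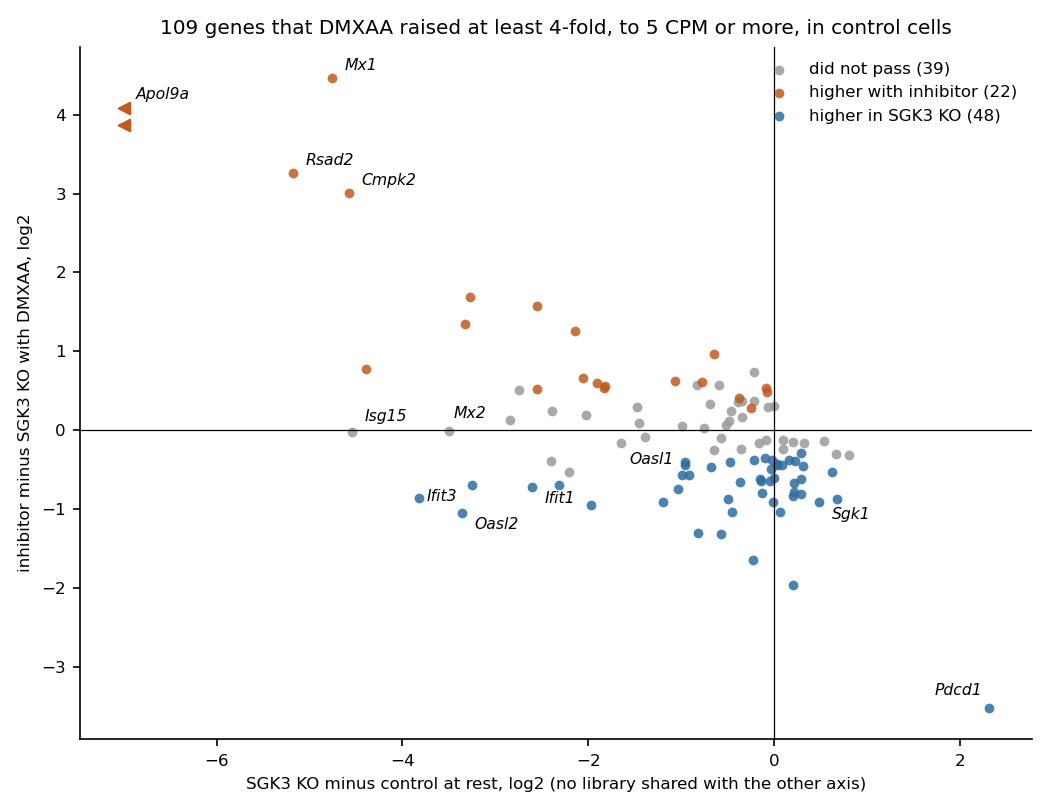
Difference between inhibitor and SGK3 knockout with DMXAA (y axis, log2) against the difference between SGK3 knockout and control at rest (x axis, log2) for the 109 DMXAA-induced genes, coloured by the call on the y axis; 2 genes fitted below -7 on the x axis are drawn there as triangles. The 5 genes with the largest positive y values, Mx1, Apol9a, Apol9b, Rsad2 and Cmpk2, lie at the far left, while Isg15, Mx2 and Oasl2 lie at or below 0 although they were lower in the knockout at rest too.

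Over all genes, the calls with DMXAA followed those at rest more closely than among the induced genes. Of the 45 induced genes lower at rest, 16 were higher with the inhibitor and 15 in the knockout. Of the 1635 genes higher with the inhibitor, 497 (30.4%) were lower in the knockout at rest, which is 63.8% of the 779 lower at rest. Of the 2085 genes higher in the knockout with DMXAA, 769 (36.9%) were higher in it at rest, which is 77.8% of those 989. The opposite pairings held 6 and 32 genes. The other 2416 of the 3720 genes (64.9%) were not called at rest. Across the 16947 genes, the difference between control and knockout at rest had a Pearson correlation of 0.44 and a Spearman correlation of 0.38 with the difference between inhibitor and knockout with DMXAA. These are descriptions across genes of the same lines, and genes are not replicates.

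The promoters of Rsad2, Isg15 and Ifit3 are shown because these genes were, in that order, higher with the inhibitor, not different by the test and higher in the knockout. Each is 300 bases of RefSeq sequence on GRCm38.p6, from 250 before the start of the gene, written 5′ to 3′ along the gene's strand, with every match to the interferon-stimulated response element (GAAA, any 2 bases, GAAA), on either strand, in capitals. Rsad2 is on chr12:26456403-26456702 (minus strand), Isg15 on chr4:156200769-156201068 (minus strand) and Ifit3 on chr19:34583279-34583578 (plus strand).
Rsad2: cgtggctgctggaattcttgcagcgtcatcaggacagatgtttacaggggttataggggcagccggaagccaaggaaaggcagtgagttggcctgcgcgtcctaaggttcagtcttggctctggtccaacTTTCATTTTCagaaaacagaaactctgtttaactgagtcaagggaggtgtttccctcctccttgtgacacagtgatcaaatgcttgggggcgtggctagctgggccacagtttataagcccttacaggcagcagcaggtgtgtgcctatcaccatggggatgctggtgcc
Isg15: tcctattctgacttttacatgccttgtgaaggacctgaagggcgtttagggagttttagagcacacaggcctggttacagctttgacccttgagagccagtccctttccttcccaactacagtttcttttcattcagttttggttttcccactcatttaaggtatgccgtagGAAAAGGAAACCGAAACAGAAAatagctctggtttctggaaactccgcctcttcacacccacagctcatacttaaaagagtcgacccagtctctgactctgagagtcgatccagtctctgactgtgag
Ifit3: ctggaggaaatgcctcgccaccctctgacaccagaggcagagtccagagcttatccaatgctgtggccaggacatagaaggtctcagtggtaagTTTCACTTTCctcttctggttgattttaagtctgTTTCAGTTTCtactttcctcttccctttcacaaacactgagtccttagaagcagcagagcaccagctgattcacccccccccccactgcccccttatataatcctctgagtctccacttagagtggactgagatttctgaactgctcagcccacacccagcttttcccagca
Rsad2 holds 1 match, Isg15 holds 3, each overlapping the next, and Ifit3 holds 2, so a match alone does not set the 3 genes apart. The promoters of Cmpk2, Oasl2 and Ifi44l hold no match to these letters. Among 27025 genes in the promoter table, 3.99% hold a match. Among the induced genes of at least 5 CPM that could be matched to the table, it was 6 of 15 (40.0%) of those higher with the inhibitor, 9 of 39 (23.1%) of those higher in the knockout and 5 of 28 (17.9%) of those that did not pass. Over all induced genes the shares were 6 of 34 (17.6%), 11 of 54 (20.4%) and 17 of 244 (6.97%), so the order of the first 2 groups turned with the level required. A match is a description of letters and not a site shown to be bound.

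The wider list of interferon-stimulated genes was mostly higher with the inhibitor. Here and in the lists that follow, counts stand beside 9.65% of all genes tested higher with the inhibitor and 12.3% higher in the knockout. Of 48 tested genes of the list, 30 were higher with the inhibitor, 4 were higher in the knockout and 14 did not pass, with a median difference of 0.76 against 0.01 for all genes. Ifi44 was at 253 and 62.6 CPM, Bst2, the gene of tetherin, at 167 and 60.9 CPM, and Oas3, an enzyme that activates RNase L, at 76.5 and 21.8 CPM. Irf9, a transcription factor of interferon signalling (0.47), and Eif2ak2, the gene of the kinase PKR (0.75), had smaller differences in the same direction. Lgals9, the gene of galectin-9, had the largest difference of the list among members above 5 CPM, at 18.6 ± 3.24 against 1.06 ± 0.22 CPM (4.13 ± 0.20). The 4 higher in the knockout were Oasl2, Gbp3, Trim21 and Trim25, the last of these the ubiquitin ligase of RIG-I at 394 and 501 CPM. These 4 became 2 in the fit with b2, where Gbp3 and Trim21 lost their calls, and without inhibitor library 1 or knockout library 1 or 3.

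This list was low in both groups and already low in the resting knockout. Against control cells with DMXAA, 46 of the 48 genes were lower with the inhibitor (median -0.90) and 47 were lower in the knockout (median -1.74), where 10.1% and 9.59% of all genes were lower. At rest, 43 of the 48 were lower in the knockout, where 4.6% of all genes were. The shorter list of early IRF3 and interferon response genes was split: 4 of 19 were higher with the inhibitor, 6 were higher in the knockout and 9 did not pass, with a median of -0.16. Those higher with the inhibitor were Rsad2, Cmpk2, Usp18 and Zbp1, and those higher in the knockout were Ifit1, Ifit2, Ifit3, Ccl5, Cxcl11 and Gbp5. In the fit with b2 this list had 3 genes higher with the inhibitor, without Zbp1, and 1 higher in the knockout, Ifit1. In the fit of b1, 17 of 19 were lower than the control with the inhibitor and 17 in the knockout.

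Antigen presentation genes differed in 1 direction. Of 23 tested, 16 were higher with the inhibitor, none was higher in the knockout and 7 did not pass (median 0.38). The non-classical class I gene H2-T23, which encodes the Qa-1 molecule, stood at 88.2, 114, 120, 153 and 130 CPM with the inhibitor and between 45.1 and 55.0 CPM in the knockout (1.26 ± 0.14, adjusted p = 3.1e-07). H2-T22 was at 32.4 ± 3.14 and 18.2 ± 1.46 CPM, and Tap1, a subunit of the peptide transporter, at 29.3 ± 4.57 and 17.5 ± 1.60 CPM. The immunoproteasome genes Psmb8 (0.43) and Psmb9 (0.45), the class I light chain gene B2m (0.40) and the class I transactivator gene Nlrc5 (0.57) lay on the same side. H2 genes are similar in sequence and may share reads. The call of Psmb9 was lost in the fit with b2 (adjusted p = 0.089). At rest, 18 of the 23 were lower in the knockout than in control cells, where 4.6% of all genes were.

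Immediate early genes, which cells transcribe within minutes of a stimulus from factors already present, were split by gene. Of 33 tested, 11 were higher in the knockout, 6 were higher with the inhibitor and 16 did not pass (median -0.16). Atf3, a repressor induced by stress, stood at 18.1, 26.1, 27.4, 29.0 and 23.8 CPM with the inhibitor and at 55.5, 54.6, 54.7, 54.5 and 47.6 CPM in the knockout (-1.10 ± 0.14). Egr3 (5.4 ± 0.98 against 17.8 ± 4.11 CPM), Fosl1 (1.78 against 5.05 CPM) and Fos (16.1 against 32.5 CPM) lay on the same side. Jun, the partner of Fos in AP-1, went the other way, at 58.4 ± 4.84 against 38.6 ± 4.04 CPM (0.60 ± 0.09). So did Ier3, which is also an NF-kB target, at 123 ± 11.0 against 63.0 ± 5.15 CPM, and Btg2, at 35.3 against 27 CPM, although the call of Btg2 was lost in the fit with b2 (adjusted p = 0.13) and with only the 2 groups fitted (0.061). At rest, 10 of the 33 were higher in the knockout and 1 was lower, where 5.84% and 4.6% of all genes were. Against control cells with DMXAA, 19 of the 33 were lower with the inhibitor and 12 in the knockout, where 10.1% and 9.59% of all genes were.

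NF-kB targets had a similar balance. Of 27 tested, 11 were higher in the knockout, 4 were higher with the inhibitor and 12 did not pass (median -0.07). The inhibitor protein gene Nfkbie was at 5.69 and 10.7 CPM (-0.92 ± 0.12), Tnfaip2 at 41.1 and 76.8 CPM (-0.90 ± 0.09) and the adaptor gene Traf1 at 19.7 and 31.0 CPM (-0.65 ± 0.11). Tnfaip3, which encodes the deubiquitinase A20 that limits NF-kB, and the subunit gene Rel were at -0.45 and -0.43. Ccl2, a monocyte chemokine, lay on the other side at 4.29 and 1.43 CPM (1.58 ± 0.23), as did Ptgs2, Nfkbiz and Nfkbia. In the fit with b2, Ccl2 (adjusted p = 0.10), Nfkbiz (0.12) and Nfkbia (0.17) lost their calls, which left 1 of the 4, Ptgs2. The 4 became 2 with no filter on low counts, and without inhibitor library 1, 2 or 3 or knockout library 4 or 5.

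**Figure D4:**
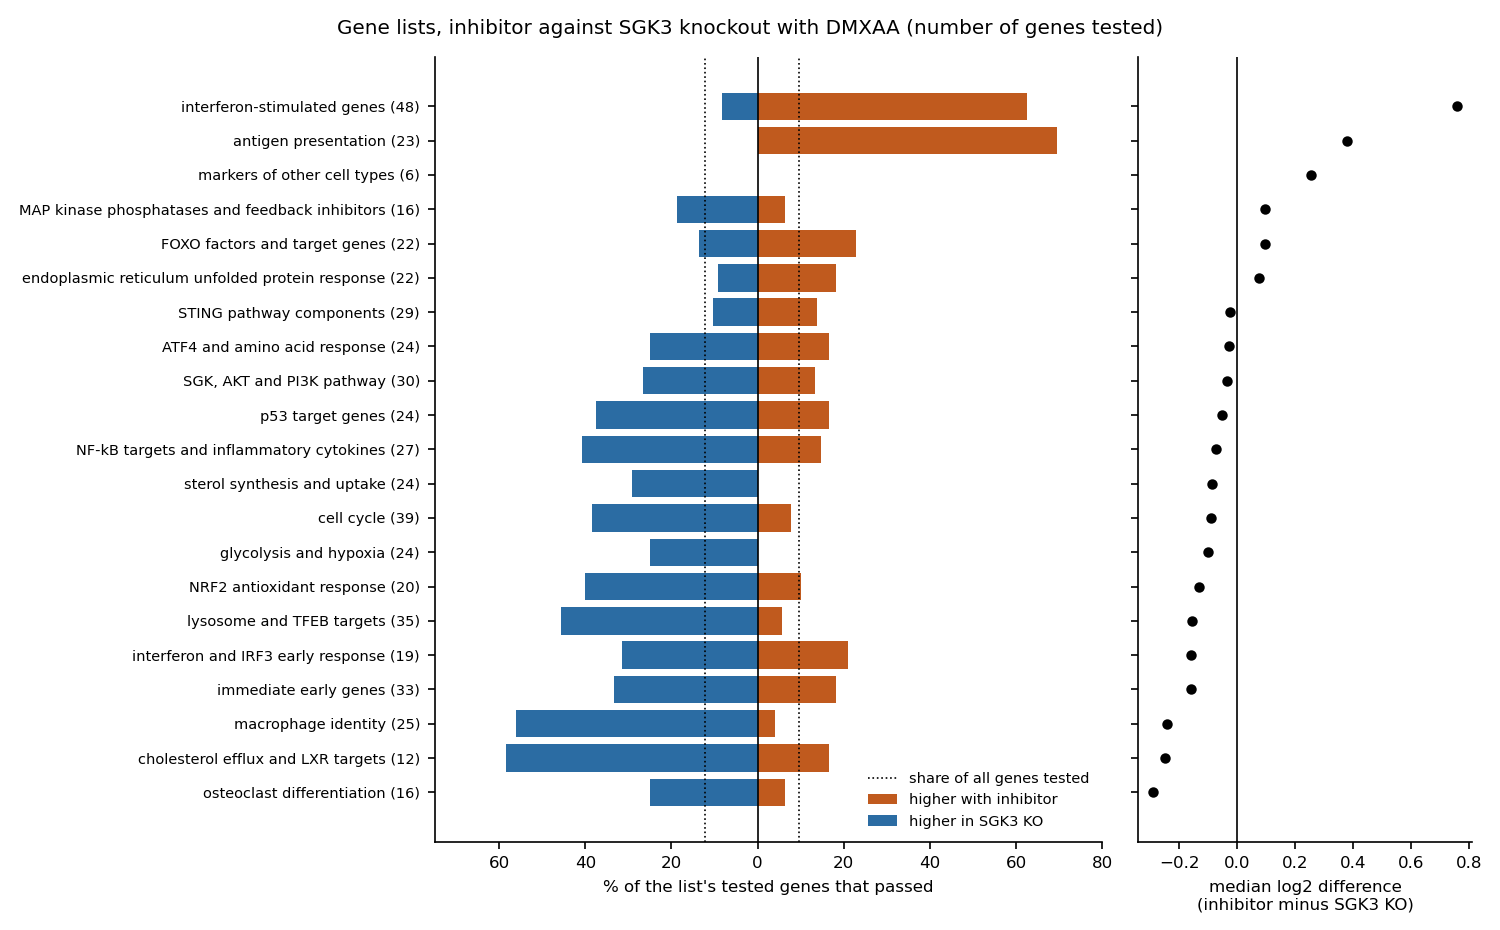
Share of the tested genes of each of 21 lists that were higher with the inhibitor (right) or in the SGK3 knockout (left), with dotted lines at the shares of all genes tested (9.65% and 12.3%), beside the list's median log2 difference. Interferon-stimulated and antigen presentation genes lie to the right at medians of 0.76 and 0.38, and the macrophage, cholesterol efflux and lysosome lists lie to the left.

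The SGK, AKT and PI3-kinase list was split. Of 30 tested, 4 (13.3%) were higher with the inhibitor, 8 (26.7%) were higher in the knockout and 18 did not pass (median -0.04). Over all genes tested, the shares were 9.65% and 12.3%. Sgk1 (chr10:21758083-21875802), itself raised by DMXAA from 1.62 to 51.3 CPM in control cells, stood at 9.0, 13.5, 13.8, 12 and 10.1 CPM with the inhibitor and at 20.2, 22.4, 24.7, 24.0 and 19.2 CPM in the knockout (-0.91 ± 0.13, adjusted p = 6.8e-06). All 10 libraries lay below the control range of 46.4 to 54.8 CPM, and the knockout lay above the inhibitor in every library. Ndrg1 was at 16.8 ± 3.47 and 31.4 ± 1.73 CPM (-0.90 ± 0.11), and Pik3r5, a regulatory subunit of the PI3-kinase gamma complex, at 105 ± 7.44 and 155 ± 12.4 CPM (-0.56 ± 0.05). With b2 in the fit, the list had 1 gene higher with the inhibitor and 3 higher in the knockout, and the adjusted p of Sgk1 was 0.053.

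FOXO factors, which AKT and SGK kinases keep out of the nucleus, and their targets were also split. Of 22 tested, 5 (22.7%) were higher with the inhibitor, 3 (13.6%) were higher in the knockout and 14 did not pass (median 0.10). Over all genes tested, the shares were 9.65% and 12.3%. Sesn1, a stress-induced inhibitor of mTORC1 and also a p53 target, stood at 72.1, 61.6, 58.8, 53.3 and 59.1 CPM with the inhibitor and between 38.9 and 43.9 CPM in the knockout (0.54 ± 0.07). DMXAA lowered this gene in control cells from 63.7 to 31.1 CPM, and the inhibitor libraries overlapped the resting range. The 5 became 2 in the fit with b2 and 9 with upper-quartile scaling. Klf2 (8.89 against 16.3 CPM) and Bcl2l11, the gene of the apoptosis activator BIM (28.9 against 38.8 CPM), were higher in the knockout.

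Components of the STING pathway were called about as often as genes at large. Of 29 tested, 22 did not pass, 4 (13.8%) were higher with the inhibitor and 3 (10.3%) were higher in the knockout, where 9.65% and 12.3% of all genes were. For 27 of the 29 the 95% interval lay within 0.5 of 0, as it did for 51.6% of all genes. Among the 9553 genes of at least 5 CPM in control cells with DMXAA, it did for 8300. The 4 became 2 in the fit with b2 and without knockout library 1. Sting1 was at 31.4 ± 2.41 CPM with the inhibitor and 23 ± 1.83 CPM in the knockout (0.45 ± 0.07), and it was also lower in the knockout at rest (21.8 against 32.1 CPM). Tbk1 (0.05 ± 0.05) and Irf3 (0.17 ± 0.07) did not pass, although the adjusted p of Irf3 went as low as 0.014 among the alternatives. Trex1, the exonuclease that removes cytosolic DNA, was at 32.3 ± 7.21 and 51.7 ± 11.5 CPM (-0.68 ± 0.19), a call lost in the fit with b2 (adjusted p = 0.38). Irf5 was at 95.8 and 122 CPM (-0.35 ± 0.04).

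Lists of macrophage function lay on the knockout's side. Of 25 macrophage identity genes tested, 14 were higher in the knockout, 1 was higher with the inhibitor and 10 did not pass (median -0.24). Lgals3 was at 671 and 938 CPM, Ptprc, the gene of CD45, at 290 and 403 CPM, and the scavenger receptor gene Msr1 at 203 and 284 CPM. The 14 became 9 in the fit with b2. The gene higher with the inhibitor was Fcgr1, a high-affinity IgG receptor that interferon raises, at 42.5 ± 3.75 and 21.6 ± 0.75 CPM (0.97 ± 0.06). This count was 2 without inhibitor library 3, 4 or 5 or knockout library 3 or 5, and 2 or 3 with upper-quartile scaling, only the 2 groups fitted, DESeq2 or limma on TPM. Of 35 lysosome and TFEB target genes, 16 were higher in the knockout, 2 were higher with the inhibitor and 17 did not pass (median -0.16). Gpnmb, a membrane glycoprotein gene of the MITF and TFEB family's targets, stood at 1.89 to 3.69 CPM with the inhibitor and at 29.0 to 31.3 CPM in the knockout (-3.37 ± 0.14). Tfeb itself was at 14.1 and 20.7 CPM, and the cathepsin genes Ctsb, Ctsd, Ctss and Ctsa were between -0.25 and -0.18. The calls of Ctsa and Ctsd were lost in the fit with b2 and in limma on TPM, and that of Ctss in the fit with b2. The sialidase gene Neu1 (0.65 ± 0.07) and the cathepsin gene Ctsl (0.42) were the 2 on the other side. Of the 35, 15 were higher in the knockout at rest, where 5.84% of all genes were.

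Cholesterol genes also lay on the knockout's side. Of 12 genes of cholesterol efflux and LXR, 7 were higher in the knockout, 2 were higher with the inhibitor and 3 did not pass (median -0.25), and the 2 became 1 in the fit with b2. Abca1, the efflux transporter, was at 5.77 ± 1.06 and 11.8 ± 1.89 CPM (-1.03 ± 0.15), Smpdl3a at 12.2 and 24.5 CPM and Mylip, the ligase that degrades the LDL receptor, at 26 and 41.4 CPM. Of 24 genes of sterol synthesis and uptake, 7 were higher in the knockout, none was higher with the inhibitor and 17 did not pass, and the 7 became 11 without knockout library 5. Their differences were small, and all 24 had intervals within 0.5 of 0. RAW264.7 cells can become osteoclasts. Of 16 osteoclast genes, 4 (25%) were higher in the knockout, 2 in the fit with b2, and 1 (6.25%) was higher with the inhibitor. Over all genes tested, 12.3% were higher in the knockout and 9.65% with the inhibitor. Dcstamp, needed for cell fusion, was at 7.27 ± 1.77 and 22.6 ± 1.76 CPM (-1.64 ± 0.12), while Car2, the carbonic anhydrase of the osteoclast, was at 143 ± 12.2 and 32.2 ± 3.18 CPM (2.15 ± 0.10).

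More cell cycle genes were higher in the knockout than with the inhibitor. Of 39 cell cycle genes, 15 were higher in the knockout, 3 were higher with the inhibitor and 21 did not pass (median -0.09). The replication licensing gene Cdc6 stood at 29.4, 31.8, 30.9, 28.4 and 29.7 CPM with the inhibitor and at 46.4, 45.6, 47.8, 46.5 and 43.8 CPM in the knockout (-0.61 ± 0.05, adjusted p = 3.9e-12). Rrm2, a ribonucleotide reductase subunit, was at 114 ± 5.70 and 159 ± 7.95 CPM, and the helicase genes Mcm2 to Mcm7 that passed were between -0.38 and -0.17. The 3 on the other side, Aurka, Aurkb and Ccnb1, act in mitosis and were between 0.16 and 0.26, with the call of Aurkb lost in the fit with b2 (adjusted p = 0.16). Against control cells with DMXAA, 20 of the 39 were lower with the inhibitor and 10 in the knockout, where 10.1% and 9.59% of all genes were. Cdc6 was at -0.51 ± 0.05 with the inhibitor and 0.11 ± 0.05 in the knockout.

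Other stress and metabolic lists had few large differences. Their shares stand beside 9.65% of all genes tested higher with the inhibitor and 12.3% higher in the knockout. Of 24 glycolysis and hypoxia genes, 6 were higher in the knockout and none with the inhibitor, among them Pdk1, which holds back pyruvate oxidation, at 57.5 and 70.8 CPM. Against control cells with DMXAA, 16 of the 24 were lower with the inhibitor and 9 in the knockout, where 10.1% and 9.59% of all genes were. Of 20 NRF2 targets, 8 (40%) were higher in the knockout and 2 (10%) with the inhibitor. Slc7a11, the cystine transporter, was at 19.2 CPM with the inhibitor and 25.4 CPM in the knockout. Of 24 p53 targets, 9 (37.5%) were higher in the knockout and 4 (16.7%) with the inhibitor. Of 24 genes of the ATF4 response, 6 (25%) were higher in the knockout and 4 (16.7%) with the inhibitor. Examples were the arginine transporter gene Slc7a1 (-0.42 ± 0.06) in the knockout and Stc2 (2.45 ± 0.17) with the inhibitor. Of 22 genes of the unfolded protein response, 4 (18.2%) were higher with the inhibitor, such as the chaperone cofactor gene Sdf2l1 (0.43 ± 0.05), and 2 (9.09%) in the knockout. Of 16 MAP kinase phosphatases and feedback inhibitors, 1 (6.25%) was higher with the inhibitor, Dusp6 (0.51 ± 0.09). In the same list, 3 (18.75%) were higher in the knockout, with Spry2 at -0.88 ± 0.14.

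Most of these stress and metabolic counts moved by more than 1.5 times under an alternative. In the fit with b2, 3 glycolysis genes, 4 NRF2 targets and 3 p53 targets were higher in the knockout, and 1 NRF2 target and 2 p53 targets were higher with the inhibitor. That fit left 2 genes of the unfolded protein response higher with the inhibitor and none higher in the knockout, and upper-quartile scaling gave 9 higher with the inhibitor. The 2 of that list higher in the knockout became 1 without inhibitor library 1 or 2 or knockout library 4 and with only the 2 groups fitted, and 0 without knockout library 1 and in limma on TPM. Limma on TPM gave 3 glycolysis genes, 5 p53 targets and 2 ATF4 response genes higher in the knockout. Of the phosphatases and feedback inhibitors, 1 was higher in the knockout in the fit with b2, in limma on TPM, with no filter, and without inhibitor library 5 or knockout library 3 or 4. In the same list, 2 were higher with the inhibitor with upper-quartile scaling, in DESeq2, and without inhibitor library 1 or knockout library 4 or 5.

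The largest single differences were of genes far lower in 1 group, some without a count there, and nearly all of them differed between the lines at rest. Plod2, a collagen lysyl hydroxylase gene, stood at 11.5, 11.5, 13.8, 13.8 and 12 CPM with the inhibitor and had no count in any knockout library. Against a floor of 12 counts per library, it was at least 80.5-fold higher with the inhibitor. Jam2, a junctional adhesion molecule gene, was at 25.9 to 28.9 CPM with the inhibitor and 0.570 to 1.19 CPM in the knockout (4.99 ± 0.12), yet at a mean of 18.3 CPM in the double knockout. The others of the 10 largest on this side were Adgrl2, Cd28, Cpq, Nid2, Nsd1, Sdc3, Lgals9 and Notch1. All 10 were lower in the knockout at rest.

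On the other side stood Ptprk, a receptor tyrosine phosphatase gene with 39.5 to 46.7 CPM in the knockout, and Maoa, which encodes monoamine oxidase A, with 26.2 to 33.3 CPM. Neither had a count in any inhibitor library, so they were at least 264-fold and at least 175-fold lower there. In the double knockout Ptprk was at 0 and Maoa at a mean of 29.6 CPM. Nxf7 (1.70 against 37.3 CPM), Serpinb6b (1.57 against 20.7 CPM), Cd80, Scarf1, Pax3, Gypc and Unc13d followed. These 9 genes were higher in the knockout at rest. The tenth, Mfsd4a, was not: it was at 0.862 to 1.16 CPM in all 5 inhibitor libraries, at 1.47 CPM in knockout library 5 and 12.2 to 18.5 CPM in the other 4, and at 0.787, 1.35, 14.7, 14.3 and 19.5 CPM in the control libraries with DMXAA. Its low and high levels thus both occurred within 2 of the groups, and the call was lost in limma on TPM (adjusted p = 0.057).

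A last comparison took each line from its own rest, as the difference between inhibitor with DMXAA and resting control cells, minus the difference between the knockout with DMXAA and the resting knockout. The resting control cells had no inhibitor, so anything the compound did on its own is included. It called 294 genes (1.73%), 63 higher (0.372%) and 231 lower (1.36%) with the inhibitor. Isg15 stood at 0.384 and 72.6 CPM in the knockout at rest and with DMXAA, and at 8.91 and 71.5 CPM in resting control and inhibitor (-4.56 ± 0.45). Oasl2, at -4.40 ± 0.55, and Ifit3, at -3.94 ± 0.66, were like it. In the other direction, Jun stood at 75.3 and 38.6 CPM in the knockout and at 50.9 and 58.4 CPM in resting control and inhibitor (1.16 ± 0.14). Cass4, a scaffold of the CAS family, stood at 20.2 and 25.4 CPM, against 19.0 and 10.9 CPM in the knockout (1.12 ± 0.20). Banp (0.94 ± 0.17), Hsd3b7 and Unc13d had the same direction. The count moved with the tool, to 499 in DESeq2, with 181 higher and 318 lower, and to 156 in limma on TPM. It was 91 in the fit with b2, and 192 and 181 without resting knockout libraries 2 and 3.

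Most of the genes that DMXAA lowered in control cells did not pass the test between inhibitor and knockout, as was so for genes at large. Of 119 genes lowered at least 4-fold (0.702% of those tested), 4 (3.36%) were higher with the inhibitor, 12 (10.1%) were higher in the knockout and 103 did not pass, where 9.65% and 12.3% of all genes were higher. Of the 22 with at least 5 CPM in resting control cells, 2 (9.09%) were higher with the inhibitor, 5 (22.7%) were higher in the knockout and 15 did not pass. Against the same control libraries with DMXAA, 15 of these 22 were higher with the inhibitor (median 0.65) and 17 were higher in the knockout (median 0.65), where 10.6% and 13.3% of all genes were higher. The 22 were chosen for low levels in those control libraries, so the choice itself favours values above 0. The shares of all genes carry no such choice.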

How the data were processed

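Poly-A RNA was sequenced from RAW264.7 cells, and the samples were grouped by the genotype and treatment in their labels and by batch. Batch b1 holds the numbered library names, b2 the lettered ones and b3 the reruns. The members, gene lists and tests were chosen with earlier results of these data known, so no list is independent evidence. The submitters' processing notes list STAR 2.7.9a, StringTie 2.2.0 and the build GRCm39. The deposited expected counts (estimated counts per gene, 55416 genes, GENCODE M27 per the table names) were rounded to whole numbers. How the authors counted, and whether by strand, is not given in the sources used here. The value 4 was the most frequent among low counts (18.3% of values from 1 to 16), so a read pair was taken as 4 counts and the floor as 3 pairs, or 12 counts, per library. A bound rests on that unit and covers counting error only. The deposited TPM, made by the authors, were used for 1 alternative, limma 3.58.1 on log2(TPM + 0.5).

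The 26 libraries of b1 in 6 groups were fitted in edgeR 4.0.16 under R 4.3.3 with TMM scaling, filterByExpr and robust quasi-likelihood F tests, with Benjamini-Hochberg adjustment over the 16947 genes tested and a threshold of 0.05. On simulated data of 16578 genes with the sizes of these libraries, the test for inhibitor minus knockout recovered 71% of genes changed by 0.5 and 94% of those changed by 1 on the log2 scale, with 3 false calls. The changed genes were drawn from those with a mean of at least 1 CPM over the 2 groups, so the recovery does not cover lower genes. At each size 100 genes were changed, the others were equal in the 2 groups, and counts followed the model that the test assumes. The 3 false calls therefore hold for such data alone. Alternatives were DESeq2 1.42.0, RLE and upper-quartile scaling, no filter, a replicate block, the groups of a comparison alone, all 46 libraries of b1 and b2, and each library left out in turn. Batches b2 and b3 hold neither group. Within a group, replicate libraries had Spearman correlations of 0.983 to 0.989, and no 2 were identical.

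Named genes were the 10 largest non-overlapping differences each way among protein-coding genes of at least 5 CPM, 8 fixed genes of the pathway, up to 3 of each of the 21 lists, the 5 largest differences of departures from rest each way, and the 6 most induced genes with an interval within 0.5 of 0. Other list members were named after their values were seen. Values of 2 list members are not reported here. The last rule also named Gcg, which had no count in the 10 libraries. Promoter sequences are from RefSeq on GRCm38.p6; gene coordinates are those of the deposited table on GRCm39.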

Additional observations from a re-analysis of the deposited data

Results flagged for a closer look

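Among 185 groups of 5 libraries tested for a value far from the other 4, 16 stood out, where chance gives about 1 in 20. In the knockout, library 5 was lowest for Tbk1 (83.7 CPM), Atf3 (47.6) and Bcl2l11 (36.9), and highest for Irf5 (137), Irf3 (42.6), Btg2 (33.3), Egr3 (24.7) and Ifit3b (6.78). Knockout library 2 was highest for Sec61b (158 CPM) and lowest for Pik3r5 (134), and library 4 was lowest for Abca1 (8.50). With the inhibitor, library 1 was lowest for Mylip (23.6 CPM), Tap1 (21.3) and Ndrg1 (10.8), library 3 was highest for Tbk1 (102) and library 4 for Ifit3b (4.61).

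Departures from rest differed by test for 63 genes higher and 231 lower with the inhibitor. The largest were, on the log2 scale, 2.05 ± 0.49 for Unc13d, 1.18 ± 0.23 for Hsd3b7, 1.16 ± 0.14 for Jun, 1.12 ± 0.20 for Cass4 and 0.94 ± 0.17 for Banp. In the other direction they were -4.68 ± 0.92 for Ifit3b, -4.56 ± 0.45 for Isg15, -4.40 ± 0.55 for Oasl2 and -3.94 ± 0.66 for Ifit3. In the resting knockout, Ifit3b and Ifit3 lay below the floor of 0.191 CPM, and Isg15 and Oasl2 lay not far above it. The sizes of these differences therefore rest on few counts. Apol9a had no count in the resting knockout, so its fitted value of -8.18 depends on the prior count and is no size of effect. The calls of Unc13d, Hsd3b7 and Ifit3b were lost in the fit with b2, and those of Unc13d and Apol9a in limma on TPM.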

How the results depend on the processing

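Of 1907 alternative values for the differences of 106 named genes between inhibitor and knockout, 1863 stayed on their side of the threshold. Another 36 no longer passed, 8 newly passed and 0 turned sign. A turn of sign was counted only where the difference passed as reported or in the alternative. Many of these genes were named for a large difference in this comparison. With all 46 libraries of b1 and b2, 1871 genes differed between inhibitor and knockout, 1558 between inhibitor and control, 1982 between knockout and control with DMXAA, 883 between knockout and control at rest, 3870 with DMXAA in control cells, and 91 in departures from rest. In that fit 15 and 41 of the 600 induced genes were higher with the inhibitor and in the knockout, and 11 and 30 of the 109 of at least 5 CPM, of which 2 and 19 were not called at rest and 9 and 9 were lower at rest. The cause was not tested. A 2-fold limit in place of 4-fold gave 106 and 166 induced and 33 and 56 repressed genes, and at least 5 CPM gave 22 higher with the inhibitor, as a longer and a shorter list do. DESeq2 gave 499 and limma on TPM 156 departures, and limma on TPM gave 88 induced genes higher with the inhibitor. The departure of Rsad2 turned to 1.23 in limma on TPM from -1.92. Upper-quartile scaling gave 2061 genes higher with the inhibitor and 1890 higher in the knockout.

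The split of other comparisons turned in limma on TPM as well, with 1343 genes higher and 2112 lower in the knockout than in the control (2257 and 1626 as reported), 1177 and 1739 for the inhibitor (1802 and 1718), and 2285 and 3690 for DMXAA (3032 and 2957). Upper-quartile scaling turned the same 3, to 1940 and 2063, 1820 and 1864, and 2625 and 3733, and the one at rest from 989 and 779 to 920 and 945. That of the inhibitor against control also turned with RLE scaling (1710 and 1909), DESeq2 (1893 and 2058), its groups alone (1404 and 1464) and b2 (677 and 881), and without inhibitor library 2 or 3 or control library 4; that of DMXAA turned without control library 1 or 2 with DMXAA. Leaving out 1 library gave 3236 to 3749 genes for inhibitor and knockout, 2955 to 3663 for inhibitor and control, 3441 to 3807 for knockout and control, 1298 to 1783 at rest, 5048 to 5973 for DMXAA and 181 to 344 for departures. Induced genes were 34 to 62 higher with the inhibitor, the lowest without inhibitor library 4, and 64 to 72 higher in the knockout. At 5 CPM they were 15 to 22 and 43 to 49, those not called at rest 4 to 7 and 26 to 31, and those lower at rest 11 to 16 and 13 to 15. Repressed genes were 3 to 5 and 10 to 14.

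The replicate numbers did not pair the samples: same-numbered libraries of the 2 groups deviated together with correlations of -0.03 to 0.09, differently numbered ones with -0.12 to 0.11, and 0 of 5 inhibitor libraries correlated best with its own number. With the replicate block, 3736 genes differed (1610 and 2126). Depth limits genes near the floor, where a missing call does not show equal levels.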
